A study of Mus musculus with 48 samples.

Results

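The genes described here encode the ErbB receptors and their EGF-family ligands: the receptor genes Egfr, Erbb2, Erbb3 and Erbb4, the EGF receptor ligand genes Tgfa, Hbegf, Btc, Ereg and Areg, and the neuregulin gene Nrg1. They were chosen by name, and 9 of the 10 were measured among 19938 genes in all. No probe set of the array's annotation names Areg, which is not analysed here. Each of the others was represented by the transcript cluster (the probe set of 1 transcript) that carries its symbol alone and has the highest mean over the arrays.

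Signal had been measured in 48 mammary tumors, 4 independent tumors from each of 12 mouse models, with an Affymetrix Mouse 1.0ST array for each tumor. Every model was a single tumor cell line implanted orthotopically, in a mammary fat pad of immunocompetent mice of its own strain (young females, by the study's methods), and tumors were taken at a diameter of 0.5 to 1.0 cm. Each group is thus 1 line, and the host cells of the fat pad stay part of the tissue. Lines of spontaneous origin are TS/A-E1, F311, EMT-6, D2A1 and 4T1 in Balb/c mice and E0771 in C57Bl/6 mice. Lines from genetically engineered mice are Met-1, MVT-1, M6, HRM-1 and 6DT1 in FVB/N mice and R3T in 129Sv mice, and by the methods MVT-1 came from a tumor with MMTV-driven Myc and VEGF transgenes. All 12 groups are tumors, so no value of normal tissue stands beside them, and differences among the 4 tumors of a model measure the spread within 1 cell line. Values are log2 signals as deposited, on which a difference of 1 is a 2-fold difference in signal, and an array gives the level of a gene relative to itself in other tumors, not relative to other genes. Unless another test is named, adjusted p-values are from limma with Benjamini-Hochberg adjustment over all 19938 genes. For differences between 2 models the adjustment was over all genes and all 66 pairs of models together. A difference passed at an adjusted p under 0.05.

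ErbB receptors are transmembrane tyrosine kinases that pair with each other when a ligand binds, and the pairs signal through the RAS-ERK and PI3K-AKT cascades. Erbb2 has no known ligand of its own and Erbb3 has little kinase activity, so that each depends on a partner, and amplified or mutated ErbB genes drive a share of human breast cancers. In the mammary gland the receptors and ligands guide duct growth, lobule formation and lactation. The ligands are made as membrane proteins and released by shedding.

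Epithelial identity varied among the tumors. Krt8 and Krt18, keratins of luminal epithelium, had their highest means in HRM-1 tumors, at 13.33 and 12.98, and their lowest at 11.01 in D2A1 tumors for Krt8 and 8.10 in E0771 tumors for Krt18. Epcam and Cdh1, which encode epithelial surface proteins, had their highest means in M6 tumors, at 11.58 and 11.81, and their lowest at 6.31 in D2A1 tumors for Epcam and 7.30 in E0771 tumors for Cdh1. A score of luminal epithelium, the mean over 17 marker genes relative to the median of all tumors, had means of -2.12 to -1.74 in D2A1, E0771, MVT-1 and EMT-6 tumors, -0.77 in 6DT1 tumors and -0.10 to 0.92 in the other models. The genes above are among these 17, and some of the 17 ranked the models differently. Gata3 was highest in 4T1 tumors (11.27) and lowest in HRM-1 tumors (6.97), and Ehf was lowest in TS/A-E1 tumors (6.09). Prom1 did not pass limma's F-test over the models (adjusted p = 0.11). M6 tumors, highest in this score, were also highest in a score of 10 basal and myoepithelial genes (0.97). Of these genes the keratins Krt5, Krt14 and Krt17 were highest in M6 tumors, whereas Acta2 was lowest there (11.22). Trp63 was highest in F311 tumors, and Myh11, Cnn1, Oxtr, Mylk and Col17a1 in 6DT1 tumors. Krt5, Myh11, Cnn1, Oxtr and Col17a1 did not pass the F-test. In 9 tumors the score of 7 measured adipocyte genes (of 8 listed) or of 5 measured B cell genes (of 6 listed) was above 2.5, and these are called fat- or B cell-rich: 4T1 replicate 3, 6DT1 replicates 2 and 3, E0771 replicate 1, EMT-6 replicate 3, F311 replicates 1 and 2, Met-1 replicate 2 and R3T replicate 2. Over all tumors the adipocyte score ranged from -1.28 to 4.27 and the B cell score from -0.25 to 5.64. In such bulk samples, fewer cells of a type and less RNA per cell cannot be told apart.

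Across the 12 models, 8 of the 9 measured genes passed limma's F-test, all but Erbb4. Over all genes 70.4% passed, so that a gene of this array more often differed among the models than not. The range of the model means had a median of 1.82 over the 9 genes and of 0.68 over all genes. When each model was set against the other 11, 21 of 108 differences passed as higher and 25 as lower, which is 19.4% and 23.1%, beside 13.5% higher and 13.1% lower over all genes. Of 594 comparisons of 2 models 220 passed, or 37%, beside 26.5% over all genes. With the models put in order for each gene, only 3 of 99 differences between neighbours passed, those between 4T1 and HRM-1 and between EMT-6 and E0771 for Tgfa and that between E0771 and HRM-1 for Ereg. The order of the other neighbours did not pass, although the tumors did not overlap in 3 of these pairs, HRM-1 and 4T1 for Egfr, D2A1 and EMT-6 for Tgfa, and EMT-6 and HRM-1 for Btc.

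**Figure D1:**
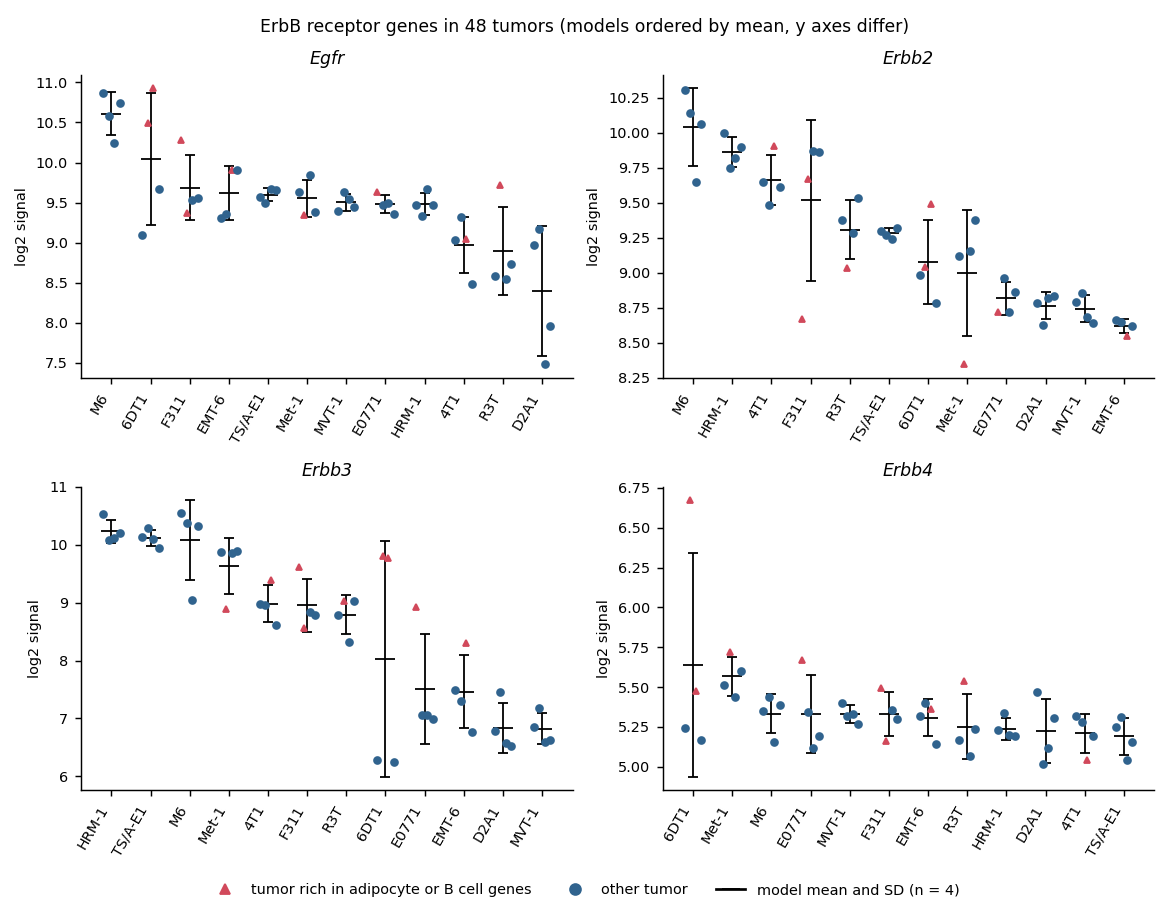
Log2 signal (y axes, which differ in range) of the 4 receptor genes in each of 48 tumors, with the 12 models ordered by their mean on the x axes. Points are tumors, triangles the 9 fat- or B cell-rich tumors, and black bars the mean and SD of 4 tumors. Erbb3 means fall from HRM-1 to MVT-1 with no step between neighbours that passed, and the 4 tumors of 6DT1 split between high and low values.

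Among the receptors, Egfr was highest in M6 tumors and lowest in D2A1 tumors. Its log2 signal was 10.87, 10.59, 10.25 and 10.74 in M6 tumors, against 7.48 to 10.93 with a median of 9.47 in the 44 other tumors. Only 6DT1 and F311 tumors reached into the M6 range. The M6 mean was 10.61 ± 0.27 (SD, n = 4), 1.23 ± 0.22 (SE) above the mean of the other 11 models (2.34-fold, adjusted p = 1.5e-05). D2A1 tumors had 8.97, 9.17, 7.48 and 7.96, and their mean of 8.40 ± 0.81 (SD, n = 4) was 1.19 ± 0.22 (SE) below that of the other models (adjusted p = 4.3e-05). Of these tumors 2 lay within the range of 4T1 and R3T tumors and 2 below every tumor of any other model. Signal also passed as higher in 6DT1 tumors, where the 2 fat-rich replicates had 10.49 and 10.93 and the other 2 had 9.10 and 9.67, and as lower in R3T tumors. Without the 9 fat- or B cell-rich tumors the 6DT1 call was lost (difference -0.0071, adjusted p = 0.99). The means of the 7 models from F311 to HRM-1 lay between 9.49 and 9.69, and none of these models passed against the other 11.

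Erbb2, the partner shared by the other receptors, had a narrower range and a small spread within models. Its log2 signal was 10.30, 10.14, 9.65 and 10.06 in M6 tumors and 9.998, 9.75, 9.82 and 9.90 in HRM-1 tumors. At the low end, signal was 8.66, 8.65, 8.55 and 8.62 in EMT-6 tumors, and D2A1, MVT-1 and E0771 tumors lay between 8.63 and 8.97. No tumor of these 4 low models overlapped with M6, HRM-1 or 4T1 tumors. The means were 10.04 ± 0.28 in M6 tumors and 8.62 ± 0.05 in EMT-6 tumors (SD, n = 4 each), a 2.67-fold difference in signal (adjusted p = 8.4e-08). Against the other 11 models, M6, HRM-1 and 4T1 tumors passed as higher, by 0.89, 0.70 and 0.48 on the log2 scale, and EMT-6, MVT-1, D2A1 and E0771 tumors as lower. F311 replicate 1 (8.67) and Met-1 replicate 2 (8.35), both fat- and B cell-rich, lay below the other tumors of their models. No Erbb2 transgene can be told apart from the endogenous gene by this array, and no copy number was measured.

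The Erbb2 promoter window is shown because the means of this gene, like those of Erbb3, did not overlap between models of high and low luminal score. The nearest models of the 2 sides did not differ past the threshold, and their tumors overlapped. It is the window of 250 bases before to 50 bases after the RefSeq start of Erbb2, chr11:98412234-98412533 (GRCm38.p6, plus strand), with 66% G and C. The motifs searched, on both strands, were the TATA box, written TATAAA, which had a match in 13.6% of all 32851 RefSeq promoter windows of this length. The GC box, GGGCGG, had a match in 35.7% of them. A motif bound by AP-2 factors, GCCNNNGGC, had a match in 16.6%, and a motif bound by AP-1 factors, TGANTCA, in 7.81%. Matches stand in capitals in each window printed here, and this window held none.
Erbb2: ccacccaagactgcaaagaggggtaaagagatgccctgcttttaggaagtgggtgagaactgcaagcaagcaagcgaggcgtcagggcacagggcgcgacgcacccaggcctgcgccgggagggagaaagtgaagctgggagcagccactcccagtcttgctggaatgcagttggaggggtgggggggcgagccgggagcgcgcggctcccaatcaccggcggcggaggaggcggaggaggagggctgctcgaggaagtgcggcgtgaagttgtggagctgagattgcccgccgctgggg

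Erbb2 lies at chr11:98412484-98437716 (RefSeq, GRCm38.p6) in a gene-dense stretch that is amplified as a unit in human breast cancers. Of 8 neighbouring genes 6 passed the F-test, and Tcap and Pnmt did not. Grb7, the gene of an adaptor protein that binds ErbB receptors, had means of 10.72 ± 0.24 in HRM-1 tumors and 6.67 ± 0.17 in D2A1 tumors (SD, n = 4 each), 16.6-fold apart (F-test over the 12 models, adjusted p = 1.4e-14). Over the 12 model means its Pearson r with Erbb2 was 0.92 (Spearman rho 0.90), given as a description. Grb7 means were 6.67 to 7.02 in the 4 models of lowest luminal score and 7.66 to 10.72 in the 8 others. Erbb2 means differ between the same sets, so this r need not hold within either of them. The other neighbours had r between -0.35 (Ikzf3, Pnmt) and 0.57 (Pgap3). Mien1, whose annotated span overlaps the end of Erbb2, had r of 0.19 and was highest in Met-1 tumors, and Stard3 on the other side had r of 0.39.

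Erbb3, a receptor of neuregulins that signals through PI3K, had the widest range of the 9 genes. Its log2 signal was 10.53, 10.07, 10.12 and 10.20 in HRM-1 tumors, and 9.94 to 10.28 in TS/A-E1 tumors. MVT-1 tumors had 6.86, 7.19, 6.60 and 6.63, and D2A1 tumors had 6.78, 7.46, 6.57 and 6.52. These low and high models did not overlap. The means were 10.23 ± 0.20 in HRM-1 tumors and 6.82 ± 0.27 in MVT-1 tumors (SD, n = 4 each), a 10.6-fold difference (log2 difference 3.41 ± 0.52, SE, adjusted p = 2.5e-06). HRM-1, TS/A-E1, M6 and Met-1 tumors passed as higher than the other 11 models, by 1.76, 1.63, 1.59 and 1.10, and MVT-1, D2A1, EMT-6 and E0771 tumors as lower, with differences of -1.96, -1.95, -1.26 and -1.21.

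In 6DT1 tumors Erbb3 signal split by tumor. It was 9.81 and 9.76 in replicates 2 and 3, against 6.28 and 6.25 in replicates 1 and 4. Replicates 2 and 3 had luminal scores of 0.41 and 0.25 and adipocyte scores of 3.95 and 4.27, whereas replicates 1 and 4 had luminal scores of -1.83 and -1.91 and adipocyte scores of -1.21 and -1.28. E0771 replicate 1 stood apart in the same way, with an Erbb3 signal of 8.93 against 6.99 to 7.06 in the other E0771 tumors, a luminal score of -0.71 against -2.58 to -2.46, and an adipocyte score of 3.41. Mammary tissue of the host holds fat and luminal cells side by side, and its part in these values was not tested. Without the 9 fat- or B cell-rich tumors, the lowest Erbb3 mean was that of 6DT1 tumors (6.27, 2 tumors), -2.33 from the other 11 models (adjusted p = 6.5e-09). The pooled SD within models was then 0.34 and the range of means 3.96, against 0.76 and 3.41 with all tumors.

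Erbb4, a receptor of neuregulins and betacellulin with a role in lactation, did not pass the F-test (adjusted p = 0.30). Its log2 signal lay between 5.02 and 5.72 in all tumors but 6DT1 replicate 2, which had 6.67. The other 6DT1 tumors had 5.24, 5.48 and 5.17, within the range of the remaining models. 6DT1 passed as higher than the other 11 models, by 0.34 ± 0.13 (SE, adjusted p = 0.034), and this rested on replicate 2, since without that tumor the difference was -0.0057. Without the 9 fat- or B cell-rich tumors Erbb4 passed the F-test (adjusted p = 0.047), with means that spanned 0.36.

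**Figure D2:**
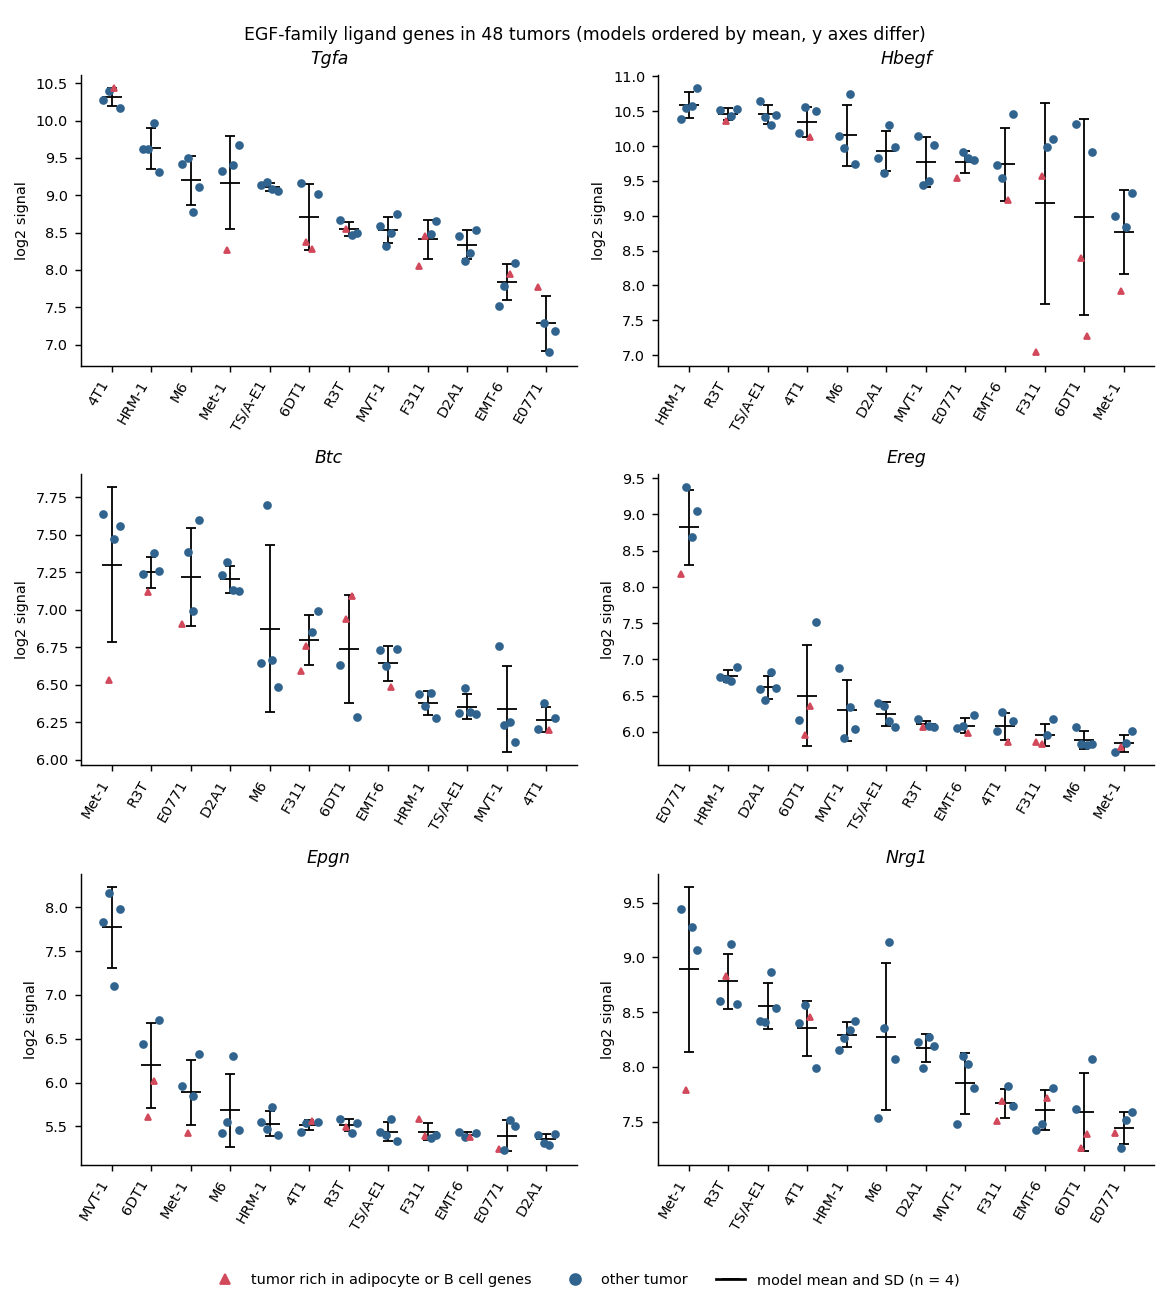
Log2 signal (y axes, which differ in range) of 6 ligand genes in each of 48 tumors, with the 12 models ordered by their mean on the x axes. Points are tumors, triangles the 9 fat- or B cell-rich tumors, and black bars the mean and SD of 4 tumors. Ereg stands apart in E0771 tumors and Epgn in MVT-1 tumors, and Tgfa falls in steps from 4T1 to E0771.

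Among the ligands of the EGF receptor, Tgfa was highest in 4T1 tumors and lowest in E0771 tumors. Its log2 signal was 10.28, 10.39, 10.44 and 10.17 in 4T1 tumors, against 6.89 to 9.97 with a median of 8.54 in the 44 other tumors, with no overlap. The 4T1 mean was 10.32 ± 0.12 (SD, n = 4), 1.70 ± 0.16 (SE) above that of the other 11 models (3.26-fold, adjusted p = 6.6e-11), and 0.69 above that of HRM-1 tumors, the next in order (adjusted p = 0.012). E0771 tumors had 7.78, 7.29, 6.89 and 7.18, a mean of 7.28 ± 0.37 (SD, n = 4) and a difference of -1.61 ± 0.16 (SE) from the other models (adjusted p = 6.9e-11). The first of these values lay within the range of EMT-6 tumors (7.52 to 8.09) and the other 3 lay below every tumor of any other model. HRM-1, M6 and Met-1 tumors also passed as higher and EMT-6 and D2A1 tumors as lower, and 46 of 66 pairs of models differed, against a median of 17 over all genes.

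The Tgfa promoter window is shown because its model means, like those of Erbb2, were highest among models of high luminal score. It is at chr6:86194972-86195271 (RefSeq, GRCm38.p6, plus strand), with 70.7% G and C. It again runs from 250 bases before to 50 bases after a start, but this is not the first base of the gene's span. The RefSeq span of Tgfa begins at 86195038, inside the window, and all marked matches lie within that span. Capitals mark 2 matches to the GC box and 2 to the AP-2 motif, of which the pair nearest the window's start site overlaps. The TATA box and the AP-1 motif had no match.
Tgfa: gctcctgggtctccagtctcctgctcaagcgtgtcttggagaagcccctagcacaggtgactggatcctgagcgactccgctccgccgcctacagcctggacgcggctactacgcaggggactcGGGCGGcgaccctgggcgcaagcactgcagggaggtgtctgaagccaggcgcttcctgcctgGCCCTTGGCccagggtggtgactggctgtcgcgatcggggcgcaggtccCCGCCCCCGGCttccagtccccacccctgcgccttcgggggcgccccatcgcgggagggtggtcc

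Hbegf, a ligand that EGF receptor and Erbb4 share, had a narrower order. Signal was 10.39, 10.55, 10.57 and 10.84 in HRM-1 tumors, and 8.99, 7.92, 8.84 and 9.33 in Met-1 tumors, with no overlap. The means were 10.58 ± 0.19 and 8.77 ± 0.60 (SD, n = 4 each), a 3.52-fold difference (adjusted p = 0.0021). Met-1 tumors passed as lower than the other 11 models, with a difference of -1.17 ± 0.34 (SE, adjusted p = 0.0058), which missed the threshold without replicate 2 (-0.89, adjusted p = 0.067). 6DT1 tumors passed as lower too, but their values were 8.39 and 7.28 in the fat-rich replicates 2 and 3 and 10.32 and 9.92 in replicates 1 and 4. F311 replicate 1, with an adipocyte score of 3.93, had 7.04 against 9.57 to 10.11 in the other F311 tumors. Without the 9 fat- or B cell-rich tumors 6DT1 tumors were at 10.12 (2 tumors), 0.06 from the other models (adjusted p = 0.85), and Met-1 tumors at -1.10 (adjusted p = 1.3e-06). In that setting HRM-1, R3T and TS/A-E1 tumors passed as higher, which they did not with all tumors.

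Btc, Ereg and Epgn are ligand genes that lie, with Areg, in 1 cluster in RefSeq (GRCm38.p6, chr5:91027517-91402994), and the highest model differed for each of the 3. Ereg, the gene of epiregulin, had log2 signals of 8.17, 9.37, 8.69 and 9.04 in E0771 tumors, against 5.73 to 7.51 with a median of 6.08 in the 44 other tumors. The groups did not overlap. The E0771 mean of 8.82 ± 0.51 (SD, n = 4) was 2.61 ± 0.15 (SE) above that of the other 11 models (6.09-fold, adjusted p = 6.3e-17) and 2.05 above that of HRM-1 tumors, the next in order (adjusted p = 5.7e-10). The highest value outside E0771 was that of 6DT1 replicate 4, at 7.51, where the other 6DT1 tumors had 5.95 to 6.36. Met-1, M6 and F311 tumors passed as lower, with means of 5.84 to 5.96, and that of F311 missed the threshold without the 9 fat- or B cell-rich tumors (adjusted p = 0.073). For each of them the mean of the other 11 models takes in the E0771 mean of 8.82, which raises it. These signals were dim, and apart from the step below E0771 no neighbours in the order passed.

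Btc, the gene of betacellulin, had the narrowest range of the ligands measured here other than Egf and Nrg3. Signal was 7.64, 6.53, 7.47 and 7.56 in Met-1 tumors, of which the fat- and B cell-rich replicate 2 stood low. In R3T tumors signal was 7.12 to 7.38. It was 6.21, 6.38, 6.20 and 6.28 in 4T1 tumors, below all tumors of these models. The means were 7.30 ± 0.52 in Met-1 tumors and 6.27 ± 0.08 in 4T1 tumors (SD, n = 4 each), a 2.05-fold difference (adjusted p = 8.1e-05). Met-1, R3T, E0771 and D2A1 tumors passed as higher than the other 11 models and 4T1, MVT-1, TS/A-E1 and HRM-1 tumors as lower. These signals were dim too. Means of the lower models, 6.27 to 6.38, lay near the Egf median of 6.19, and no background was measured.

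Epgn, the gene of epigen, followed neither of them. It had 7.83, 8.16, 7.10 and 7.98 in MVT-1 tumors, against 5.23 to 6.72 in the 44 other tumors, with no overlap. The MVT-1 mean of 7.77 ± 0.46 (SD, n = 4) was 2.19 ± 0.14 (SE) above that of the other 11 models (4.57-fold, adjusted p = 6.2e-15). 6DT1 tumors passed as higher as well, by 0.47. Over the 12 model means, r was -0.14 between Epgn and Ereg, -0.31 between Epgn and Btc and 0.24 between Ereg and Btc, as a description. The cluster's promoter windows of Epgn, chr5:91027267-91027566 (plus strand), and Btc, chr5:91402945-91403244 (minus strand), are shown for comparison (RefSeq, GRCm38.p6). Epgn has 47.3% G and C and 1 match to the TATA box, in capitals, and Btc has 60.3% G and C and no match to any of the 4 motifs.
Epgn: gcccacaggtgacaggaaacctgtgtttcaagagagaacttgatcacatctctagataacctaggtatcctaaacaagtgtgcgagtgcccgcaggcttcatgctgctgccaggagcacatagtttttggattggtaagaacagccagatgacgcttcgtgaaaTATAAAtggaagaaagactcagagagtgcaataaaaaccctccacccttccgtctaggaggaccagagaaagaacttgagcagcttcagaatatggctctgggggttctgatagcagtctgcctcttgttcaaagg
Btc: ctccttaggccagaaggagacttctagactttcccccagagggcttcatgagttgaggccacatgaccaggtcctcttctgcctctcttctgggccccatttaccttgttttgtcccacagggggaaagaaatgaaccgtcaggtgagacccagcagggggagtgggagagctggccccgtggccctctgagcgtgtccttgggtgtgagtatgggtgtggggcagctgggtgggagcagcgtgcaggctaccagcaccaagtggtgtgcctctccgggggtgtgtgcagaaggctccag

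Nrg1, the gene of neuregulin-1, a ligand of Erbb3 and Erbb4, was highest in Met-1 and R3T tumors. Its log2 signal was 9.44, 7.79, 9.27 and 9.06 in Met-1 tumors and 8.57 to 9.12 in R3T tumors, and E0771 tumors had 7.39, 7.26, 7.51 and 7.59. E0771 tumors lay below all R3T tumors and below all Met-1 tumors. The means were 8.89 ± 0.75 in Met-1 tumors and 7.44 ± 0.14 in E0771 tumors (SD, n = 4 each), a 2.73-fold difference (adjusted p = 1.2e-05). The Met-1 mean was 0.84 ± 0.18 (SE) above that of the other models (adjusted p = 0.00030), although its fat- and B cell-rich replicate 2 was at 7.79. E0771, 6DT1 and EMT-6 tumors passed as lower, and the 6DT1 call was lost without the 9 fat- or B cell-rich tumors (adjusted p = 0.20). Met-1 tumors thus had higher Nrg1, Btc and Tgfa and lower Hbegf and Ereg than the mean of the other 11 models, and E0771 tumors had higher Ereg and Btc and lower Tgfa and Nrg1. For Ereg in Met-1 tumors, that mean (6.49) takes in the high E0771 value.

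**Figure D3:**
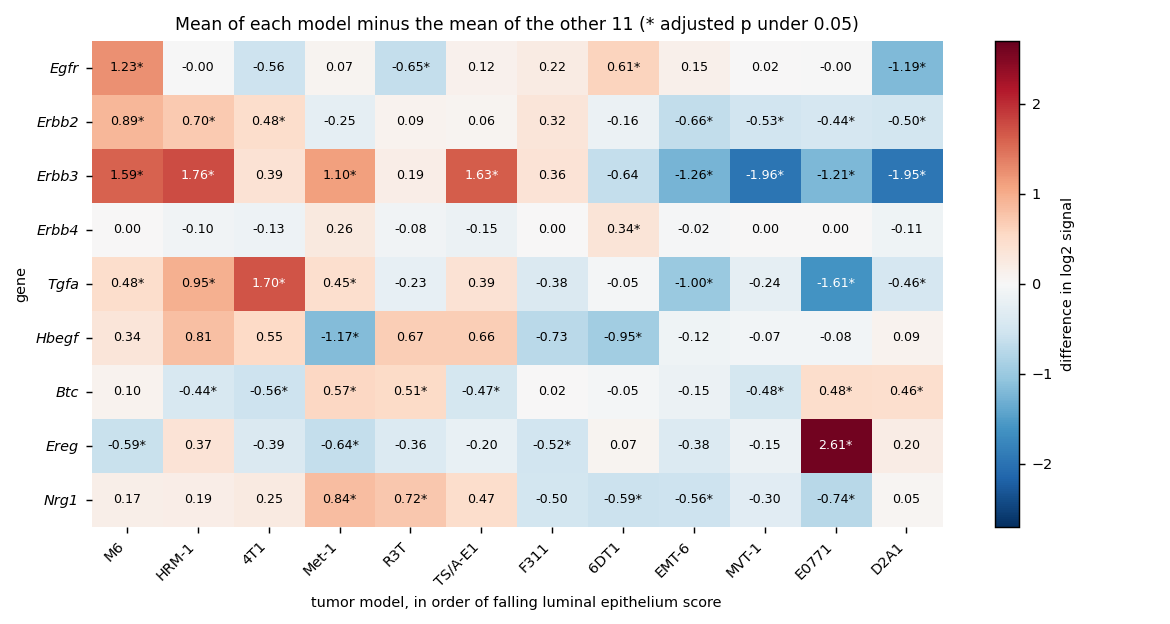
Mean log2 signal of each model (x axis, in order of falling luminal epithelium score) minus the mean of the other 11 models, for the 9 measured genes (y axis). Colour gives the difference, numbers its value, and an asterisk an adjusted p under 0.05. The 4 models at the right have lower Erbb2 and Erbb3, and the single darkest cell is Ereg in E0771 tumors at 2.61.

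Of the 5 other EGF-family ligand genes, 2 passed the F-test, Epgn and Nrg2, a neuregulin gene. Nrg2 was highest in Met-1 tumors, with 8.43, 7.40, 8.41 and 8.36, a mean of 8.15 ± 0.50 (SD, n = 4) and a difference of 1.01 ± 0.10 (SE) from the other 11 models (adjusted p = 1.4e-10). R3T and TS/A-E1 tumors passed as higher too, so that Met-1 and R3T were the top 2 models for both Nrg1 and Nrg2. Egf and Nrg3 did not pass, and their model means spanned 6.09 to 6.32 and 5.10 to 5.24.

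Nrg4, a neuregulin that adipocytes secrete, did not pass the F-test, and its signal varied within models. It was 4.93, 8.73, 9.39 and 5.06 in 6DT1 tumors, 8.72, 5.07, 5.15 and 5.04 in E0771 tumors and 7.74, 4.98, 5.03 and 4.85 in F311 tumors. 6DT1 tumors passed as higher than the other 11 models (adjusted p = 0.011), on replicates 2 and 3. It was above 6 in 7 tumors, with adipocyte scores of 1.89 to 4.27, and at most 5.79 in the 41 others, whose adipocyte scores reached 2.53. Without the 9 fat- or B cell-rich tumors the 6DT1 difference was -0.12 (adjusted p = 0.72). Relative to the model means, r of Nrg4 over the 48 tumors was 0.92 with the basal and myoepithelial score, 0.91 with the adipocyte score, 0.86 with the endothelial score and 0.75 with the luminal score, as a description over tumors that share a model.

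Signals of other members moved with these scores as well. Relative to the model means, Hbegf had r of -0.75 with the adipocyte score and -0.82 with the score of basal and myoepithelial cells, and Erbb3 had r of 0.69 and 0.82 with them. These are descriptions, since tumors of a model and genes of an array share their sources. Hbegf was at 7.04 to 8.39 in 4 of the 9 fat- or B cell-rich tumors and at 8.84 or more in all tumors without such scores. The share of host tissue in the tumors was not tested.

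**Figure D4:**
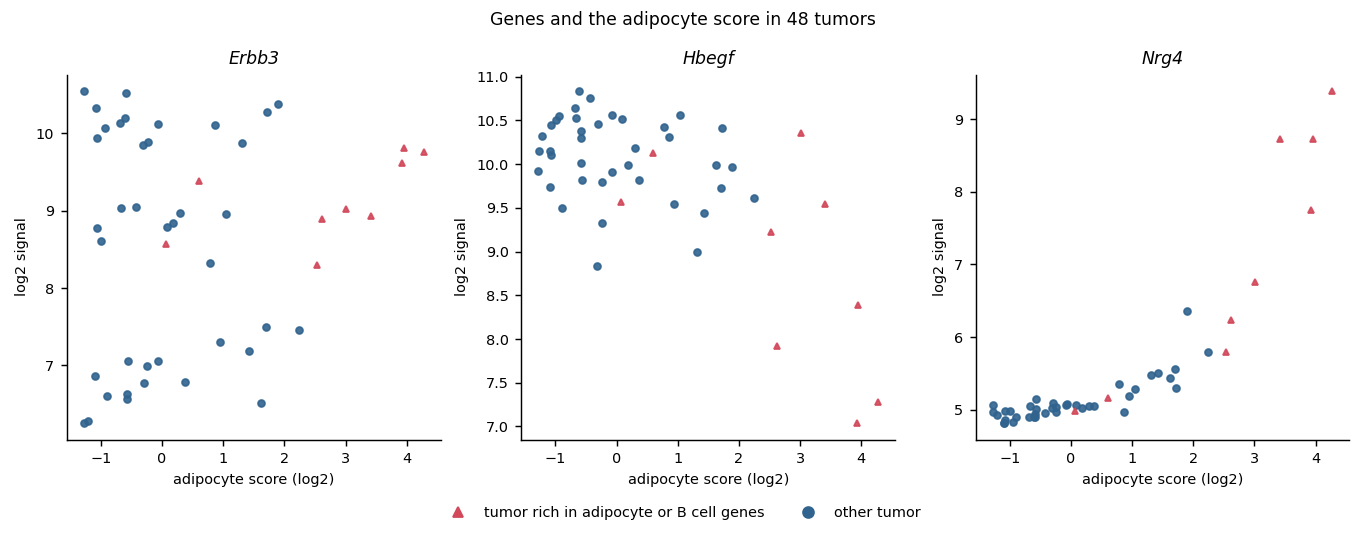
Log2 signal (y axes) of Erbb3, Hbegf and Nrg4 against the adipocyte score (x axes, mean log2 signal of 7 adipocyte genes relative to the median of all tumors) in 48 tumors. Triangles are the 9 fat- or B cell-rich tumors. Nrg4 signal is above 6 in 7 tumors with scores of 1.89 or more, and the 4 lowest Hbegf values are those of triangles.

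The relation of the genes to luminal epithelium was examined over the 12 model means. The model means of the score fell into 2 sets with a gap of 0.97 between them, 4 models at -1.74 or below and 8 at -0.77 or above. Erbb3 means were 6.82 to 7.51 in the 4 low models and 8.03 to 10.23 in the 8 others. The lowest of the 8 is 6DT1, and its place rests on its fat-rich replicates 2 and 3, since replicates 1 and 4 had luminal scores of -1.83 and -1.91 and Erbb3 signals of 6.28 and 6.25, within or below the range of the 4 low models. Without 6DT1, the 7 other models had Erbb3 means of 8.79 or more. Erbb2 means were 8.62 to 8.82 in the low models and up to 10.04 in the others, also without overlap, and Tgfa means of 7.28 to 8.54 in the low models and 8.41 to 10.32 in the others overlapped. Of 45 correlations of the 9 genes with 5 marker scores over all 12 models, 3 passed a 2-sided permutation test after adjustment, those of Erbb3, Erbb2 and Tgfa with this score (adjusted p = 0.0027, 0.017 and 0.039). That of Tgfa missed the threshold with quantile normalization (adjusted p = 0.066) and without replicate 2 (adjusted p = 0.12). Since the models form separate sets, no r of Erbb3, Erbb2 or Tgfa with this score is given over all 12. Within the 8 higher models, r was 0.71 for Erbb3 (rho 0.64), 0.64 for Erbb2 (rho 0.69) and 0.48 for Tgfa (rho 0.79), and none passed (exact permutation test, adjusted p over 4 relations = 0.14, 0.14 and 0.20 for r and 0.13, 0.13 and 0.11 for rho). Without 6DT1 and F311, the models farthest from the median score, r was 0.14, 0.72 and 0.14. Without 6DT1 alone, r was 0.37, 0.55 and 0.45 and rho 0.46, 0.68 and 0.82, and none passed the same test. The r of Erbb3 and Tgfa within this set thus depended on the models kept, and for Tgfa leaving out 6DT1 alone changed it little. The 4 low models were too few for a correlation. Among tumors, Erbb3 signal and the luminal score had r of 0.95 relative to the model means, Erbb2 0.34 and Tgfa 0.06.

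**Figure D5:**
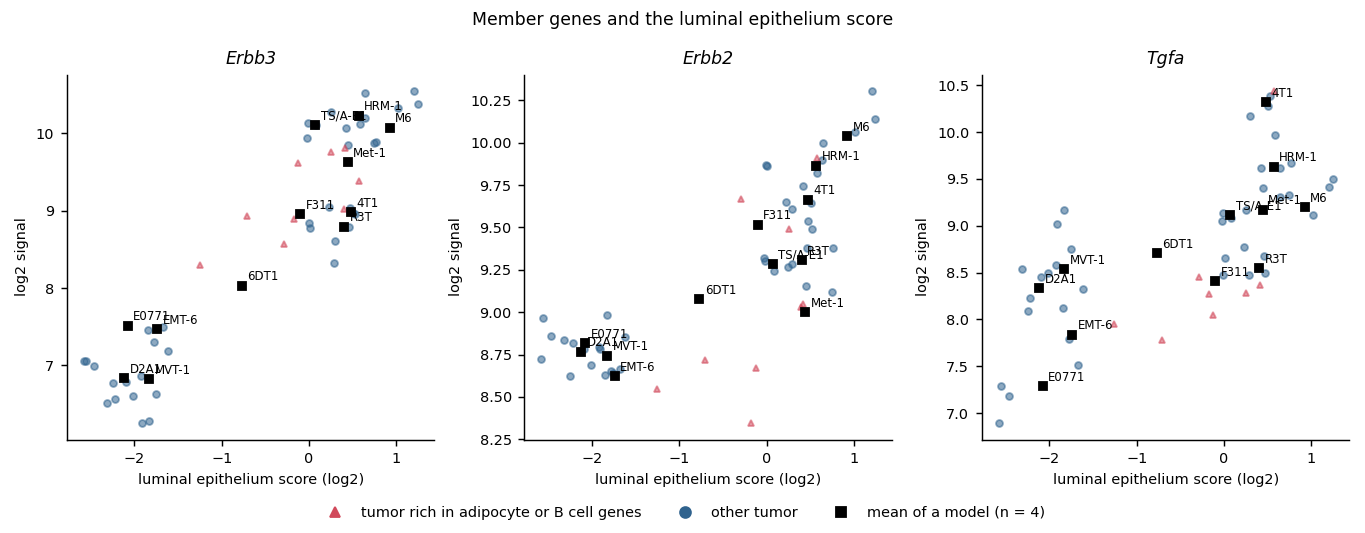
Log2 signal (y axes) of Erbb3, Erbb2 and Tgfa against the luminal epithelium score (x axes, mean log2 signal of 17 marker genes relative to the median of all tumors). Squares are means of 4 tumors of a model, points and triangles tumors, the triangles being the 9 fat- or B cell-rich tumors. The 4 models with scores of -1.74 or below have Erbb3 means of 7.51 or less, and the 8 others of 8.03 or more.

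Of the 36 pairs among the 9 genes, 2 had an r over the 12 model means that passed a permutation test after adjustment. Erbb2 and Erbb3, the pair of receptors that form a strong signaling dimer, passed (adjusted p = 0.035, rho adjusted p = 0.083) but differ between the same sets of models. Within the 8 models of higher luminal score r was 0.50 (rho 0.40, exact permutation test, adjusted p = 0.20 and 0.33), and 0.13 without 6DT1 and HRM-1. Erbb4 and Hbegf had an r of -0.86 (permutation test, adjusted p = 0.0072) and a rho of -0.71 (adjusted p = 0.10). However, Erbb4 did not pass the F-test over the models (adjusted p = 0.30). Its dim means spanned 0.45, so its order of the models is not established. 6DT1 was highest in Erbb4 on the fat-rich replicate 2 and low in Hbegf on the fat-rich replicates 2 and 3. Without 6DT1 and Met-1, r was -0.71, and without the 9 fat- or B cell-rich tumors -0.79 (adjusted p = 0.12). None of the ligand genes passed with a receptor gene other than this pair.

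The genes whose model means lay nearest to those of each member, by Pearson r over the 12 models, are given as a description. Erbb3 and Erbb2 means differ between models of high and low luminal score. Their r over all 12 models need not hold within either set, which was not examined for these genes. For Erbb3 these were Marveld2 (r 0.98), a gene of tight junctions between epithelial cells, Serpinb5 (0.97), the gene of maspin, and Mapk13 (0.97), a p38 kinase gene. For Erbb2 they were Krt14 (0.94), a basal keratin, Epn3 (0.93) and Grb7 (0.92). Krt14 had means of 12.24 in M6 tumors and 6.95 in MVT-1 tumors. Ereg lay nearest to Nlrp4e, Phox2a and Pxt1 (r 0.96 to 0.97, rho 0.73 to 0.86), all highest in E0771 tumors, the model that sets these r values apart from the rank correlations. Tgfa lay nearest to Kmt5b, Pick1 and Cep20 (0.90 to 0.92), all highest in 4T1 and lowest in E0771 tumors. The nearest genes were Epha2, Parp16 and Fhl2 for Hbegf (0.88 to 0.91), Eps8l2, Lrrc8b and Plpp2 for Nrg1 (0.86 to 0.88), Rab4a, Bcap31 and Ndufb10 for Btc (0.85 to 0.89), Slc10a4, Sytl1 and Adprhl2 for Egfr (0.84 to 0.86), and Slc5a1, Ehhadh and Fign for Erbb4 (0.95 to 0.96).

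Genes that act on or after the receptors differed among the models nearly throughout: 8 of 8 genes of ligand shedding, 15 of 15 of receptor inhibition and turnover, 15 of 15 measured (of 20 listed) adaptors and RAS-ERK genes, 9 of 9 measured (of 11 listed) PI3K-AKT genes and 19 of 19 ERK target and feedback genes passed the F-test, beside the 70.4% of all genes. Median ranges of their model means were 0.83, 0.91, 0.85, 0.81 and 1.59 in that order, beside 0.68 over all genes. Among the shedding genes Adam17, the main sheddase of Tgfa and Hbegf, was highest in E0771 and lowest in D2A1 tumors (range 0.65, F-test over the 12 models, adjusted p = 2.4e-11), and Adam10, which sheds Btc, was highest in MVT-1 and lowest in E0771 tumors (0.98, F-test over the 12 models, adjusted p = 1.5e-09). Rhbdf1, the gene of an inactive rhomboid protein that guides Adam17, was highest in M6 tumors, and Adam15 in D2A1 tumors.

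Among the genes that restrain the receptors, Cblc, an epithelial ubiquitin ligase gene, had means of 9.10 in HRM-1 tumors and 6.79 in EMT-6 tumors (4.95-fold, F-test over the 12 models, adjusted p = 1.7e-12). Sh3kbp1, which links Cbl proteins to endocytosis, was highest in Met-1 and lowest in M6 tumors, Socs4 was highest in M6 tumors and Lrig2 in EMT-6 tumors. In the RAS-ERK list, M6 tumors had the highest Nras (12.74, 5.50-fold above 6DT1 tumors, F-test over the 12 models, adjusted p = 3.8e-19) and the highest Gab1 (11.34, 4.21-fold above R3T tumors), the gene of a docking protein. Araf was highest in Met-1 tumors, by 1.99-fold over E0771 tumors. In the PI3K-AKT list, Pik3r3, a regulatory subunit, had means of 10.14 in Met-1 tumors and 6.55 in E0771 tumors (12.0-fold, F-test over the 12 models, adjusted p = 4.6e-12), whereas Akt1, Pdpk1 and Pik3cb spanned 0.65, 0.58 and 0.90. Among ERK targets, Etv1 had means of 11.38 in 4T1 tumors and 7.42 in M6 tumors (15.5-fold), and Egr1 had 10.73 in M6 tumors and 8.27 in E0771 tumors (5.47-fold). Ier2 was highest in M6 tumors as well, and Spry4, a feedback inhibitor, was highest in E0771 tumors.

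Strain was compared on model means, 5 Balb/c models against 5 FVB/N models, where strain and origin cannot be told apart. None of the 9 genes passed in limma, and none had an unadjusted p under 0.05, beside 0.191% of all genes that passed. A fit of all 40 tumors with the model as a random block called none either. Egfr averaged 9.26 in Balb/c models and 9.84 in FVB/N models, a difference of -0.58 ± 0.31 (SE, 95% interval -1.28 to 0.11, adjusted p = 0.70). Erbb4 averaged 5.25 and 5.42, a difference of -0.17 (interval -0.35 to 0.01). The widest interval was that of Erbb3, -2.34 to 1.36 around -0.49, so that a several-fold difference in either direction was not detectable with 5 models each. The remaining differences lay between -0.25 (Tgfa) and 0.28 (Hbegf).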

How the data were processed

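The authors deposited log2 signal for 35556 transcript clusters on each of 48 Affymetrix arrays, with software and normalization not given in the sources used here. Array medians were 6.76 to 6.99, and no arrays were duplicates. Groups came from the sample labels, in which no batch is named. The brightest cluster with 1 gene symbol stood for each gene, without a filter. An Erbb2 cluster that also names Sympk was left out.

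Models were compared with limma 3.58.1 in R 4.3.3 by an F-test, each model against the other 11 and 66 pairs, and strains on model means. Correlations over model means used 2-sided permutation tests with 100000 resamples (Python 3.11.15, numpy 2.4.6, scipy 1.17.1, pandas 2.3.3) over 36 and 45 pairs, fewer than planned because Areg was not measured. Figures used matplotlib 3.10.9. Fits were tested on simulated data. RefSeq promoter windows were at hand for Egfr, Erbb2, Erbb4, Tgfa, Btc, Areg and Epgn.

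The members and lists were chosen with earlier results of these data known. Named are the members, the other EGF-family ligands, up to 4 genes with the smallest F-test p of each pathway list, the 3 genes nearest to each member and the genes around Erbb2 and Btc, with Krt8, Krt18, Epcam and Cdh1 added after their values were seen. Alternatives were a replicate term, other limma priors, an ordinary F-test, marker scores as covariates, quantile normalization, centring, averaged clusters, model medians, no genes of the dimmest 30%, and leaving out fat- or B cell-rich tumors or each tumor, replicate number or model. Relations within the models above the gap of the luminal score were added after the data were seen.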

Additional observations from a re-analysis of the deposited data

Results flagged for a closer look

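Single tumors that stood apart from the other 3 of their model (a gap to the nearest past Dixon's 95% critical value) were found in 18 of 168 groups of 4 tumors, over 14 genes. Chance flags about 1 in 20 groups, and 9 of the 18 were in fat- or B cell-rich tumors. The causes were not tested.

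Among the receptors, Egfr was 9.72 in R3T replicate 2, where the nearest R3T tumor had 8.73. Erbb2 was 8.67 in F311 replicate 1, against 9.67 in the nearest tumor. Erbb3 was 8.93 in E0771 replicate 1, against 7.06 in the nearest tumor, and 8.90 in Met-1 replicate 2, against 9.86. These 4 tumors are fat- or B cell-rich. Erbb3 was also 9.05 in M6 replicate 3, against 10.33, and this tumor had a luminal score of 0.22 and an adipocyte score of -0.43. Its score of 7 skeletal muscle genes was 3.99, and muscle genes were not part of the rule for fat- or B cell-rich tumors.

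Among the ligands, Btc was 6.53 in Met-1 replicate 2, against 7.47 in the nearest tumor, and Nrg2 was 7.40 there, against 8.36. Btc was 7.70 in M6 replicate 2, against 6.67, and Nrg4 was 6.36 in the same tumor, against 4.97, where the adipocyte score was 1.89. Nrg4 was 8.72 in E0771 replicate 1 and 7.74 in F311 replicate 1, against 5.15 and 5.03 in the nearest tumors. Epgn was 6.30 in M6 replicate 3, against 5.55. The remaining gaps were small in size: Btc 6.48 in TS/A-E1 replicate 2, Ereg 6.07 in M6 replicate 1 and 6.18 in R3T replicate 1, Epgn 5.43 in 4T1 replicate 1 and 5.58 in F311 replicate 1, and Nrg3 5.03 in D2A1 replicate 2.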

How the results depend on the processing

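Of 1758 values of single genes under an alternative, 1726 kept their direction and their side of the threshold. The count of genes that passed the F-test was 8 of 9, and 8 or 9 under every alternative. Calls of a model against the other 11 numbered 46, with 44 to 53 under the alternatives, and calls of pairs of models 220, with 211 to 302. No gene passed between Balb/c and FVB/N models under any alternative. Tumors of different models that share a replicate number share only the number (mean r of their deviations 0.022, with 37.9% of pairs over 0.1). With the replicate number as a block, 8 genes, 47 calls and 223 pairs passed, and 0 genes between strains.

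Correlations were less stable. Without the 9 fat- or B cell-rich tumors, 0 of 36 pairs of genes and 6 of 45 pairs of gene and score passed, against 2 and 3 with all tumors. Leaving out each replicate number gave 0 to 2 pairs of genes and 2 to 6 pairs of gene and score. The cause was not tested.

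Some differences changed sign. Erbb4 in 6DT1 tumors was -0.076 without the fat- or B cell-rich tumors and ranged from -0.0057 to 0.50 when single tumors were left out, and it missed the threshold with quantile normalization (adjusted p = 0.073) and with marker scores as covariates (adjusted p = 0.12). Between strains, where no gene passed, Btc was 0.024 without 4T1, 0.071 without Met-1 and 0.0020 without TS/A-E1, Ereg was 0.013 with model medians and 0.064 without HRM-1, and Nrg1 was 0.0079 without EMT-6 and 0.070 without Met-1. With 4 tumors a model, differences under the spread among tumors were not detectable. The dim signals of Erbb4, Egf and Nrg3 have no measured background, which limits what can be read from their narrow ranges. The same holds for small differences in Ereg outside E0771 tumors (median 6.08) and Epgn outside MVT-1 tumors (median 5.46). It also holds for those in Nrg4 (median 5.06) and Btc (median 6.70), beside a median of 6.19 for Egf.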
